A study of Homo sapiens with 6 samples.

Results

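Genes of the Hippo-YAP pathway and of the serum response factor (SRF) pathway were compared between ARPE-19 cells given a satellite alpha plasmid and cells given a GFP plasmid. The set held 37 genes listed by symbol, and the list was chosen with earlier results of these data known. Every probe set whose single gene symbol was one of them counted, which gave 120 of the 49372 probe sets in the table. Of these, 3 were Affymetrix control probe sets for ACTB. The other 117 probe sets belonged to 35 genes, with 1 to 8 probe sets per gene, and FHL1 and FLNA were not analysed here. Each gene was then represented by its brightest probe set, and genes in the lowest 40% by mean level (under 5.19 on the log2 scale) were left out of the gene test. This kept 31 of the 35 genes. LATS1, AMOT, PTPN14 and NUAK2 lay under that floor and are described by probe set only.

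ARPE-19 is a spontaneously immortalised line of human retinal pigment epithelium, the pigmented layer that serves the photoreceptors. The SATalpha group received a plasmid with GFP and satellite alpha, a tandem repeat found at human centromeres, and the GFP group received the GFP plasmid without it. Both groups got 2.5 µg of plasmid per well in 6-well plates, and each gave 3 arrays of total RNA. The labels do not say how long after transfection RNA was taken, or which share of cells took up plasmid. Nor do they say whether arrays came from separate wells or cultures, so p-values measure the spread between arrays. In RNA from whole wells, a change in every cell and a change in the share of cells that express a gene cannot be told apart.

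The Hippo pathway is a kinase cascade in which STK3 and STK4, with the scaffold SAV1, activate LATS1 and LATS2. The LATS kinases phosphorylate the coactivators YAP1 and TAZ (encoded by WWTR1) and keep them out of the nucleus. Unphosphorylated YAP1 and TAZ bind TEAD factors and switch on genes such as CCN1 and CCN2. SRF drives cytoskeletal genes with the coactivators MRTFA and MRTFB, which free actin monomers hold back, and immediate early genes with the ternary complex factors of the ELK family. Both pathways respond to cell shape and actin tension, and YAP1 and TAZ are known regulators of growth and dedifferentiation in retinal pigment epithelial cells.

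Median log2 levels per array were 5.29 to 5.32, and arrays correlated across probe sets at 0.996 to 0.997 within groups and 0.995 to 0.996 between them. The ACTB control probe sets read 3 stretches of the transcript. The level at its 3′ end minus that at its 5′ end was 2.01 ± 0.13 in SATalpha cells and 2.06 ± 0.07 in GFP cells (SD, n = 3 each, two-sided exact permutation p = 0.6, where 0.1 is the smallest p possible). Of 12 markers of retinal pigment epithelium, MITF, OTX2, KRT8 and KRT18 had mean log2 levels of 8.11, 8.34, 11.4 and 12.1. EZR lay at 11.0, and SERPINF1, PMEL and TYR at 6.03, 5.74 and 5.26, above the floor of 5.19. RPE65, RLBP1, BEST1 and TYRP1 lay under the floor at 3.41 to 4.62. Markers of other cell types lay above the floor in 1 of 5 leukocyte genes (CD68, at 8.22), in 3 of 5 endothelial genes (PECAM1, VWF and KDR, at 5.34 to 5.47) and in 3 of 5 neuronal or photoreceptor genes (TUBB3, SNAP25 and SAG, at 10.1, 6.47 and 5.49). The leukocyte gene PTPRC and the endothelial gene CDH5 were under it, at 2.37 and 3.34.

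In SATalpha cells, 3 of the 5 tested genes listed here as YAP-TEAD targets rose, namely CCN1, ANKRD1 and F3. Among the other members 6 genes fell, namely NF2, AJUBA, AMOTL2, FHL2, VCL and ACTN1. Of 18 further YAP-TEAD targets tested outside the members, 1 rose and 3 fell. The direction of ACTN1 is uncertain, since its call held in 4 of 15 alternatives and turned sign in 2. NF2, AMOTL2 and VCL did not pass as the mean of all their probe sets (-0.10, -0.23 and -0.10). The genes for YAP1, TAZ, TEAD1 to TEAD4 and SRF did not pass the test in their brightest probe set. No tested gene changed by 1.5-fold: the log2 differences, SATalpha minus GFP, ran from -0.36 for FHL2 to 0.38 for CCN1. A gene passed when its p from limma's linear model, adjusted by Benjamini-Hochberg over all 10879 tested genes, was under 0.05. By this rule 9 of 31 members passed (29.0%), against 20.8% of all tested genes. The 3 that rose compare with 7.72% of all tested genes, and the 6 that fell with 13.0%. The median difference of the 31 members was -0.02, and that of all tested genes was also -0.02.

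**Figure D1:**
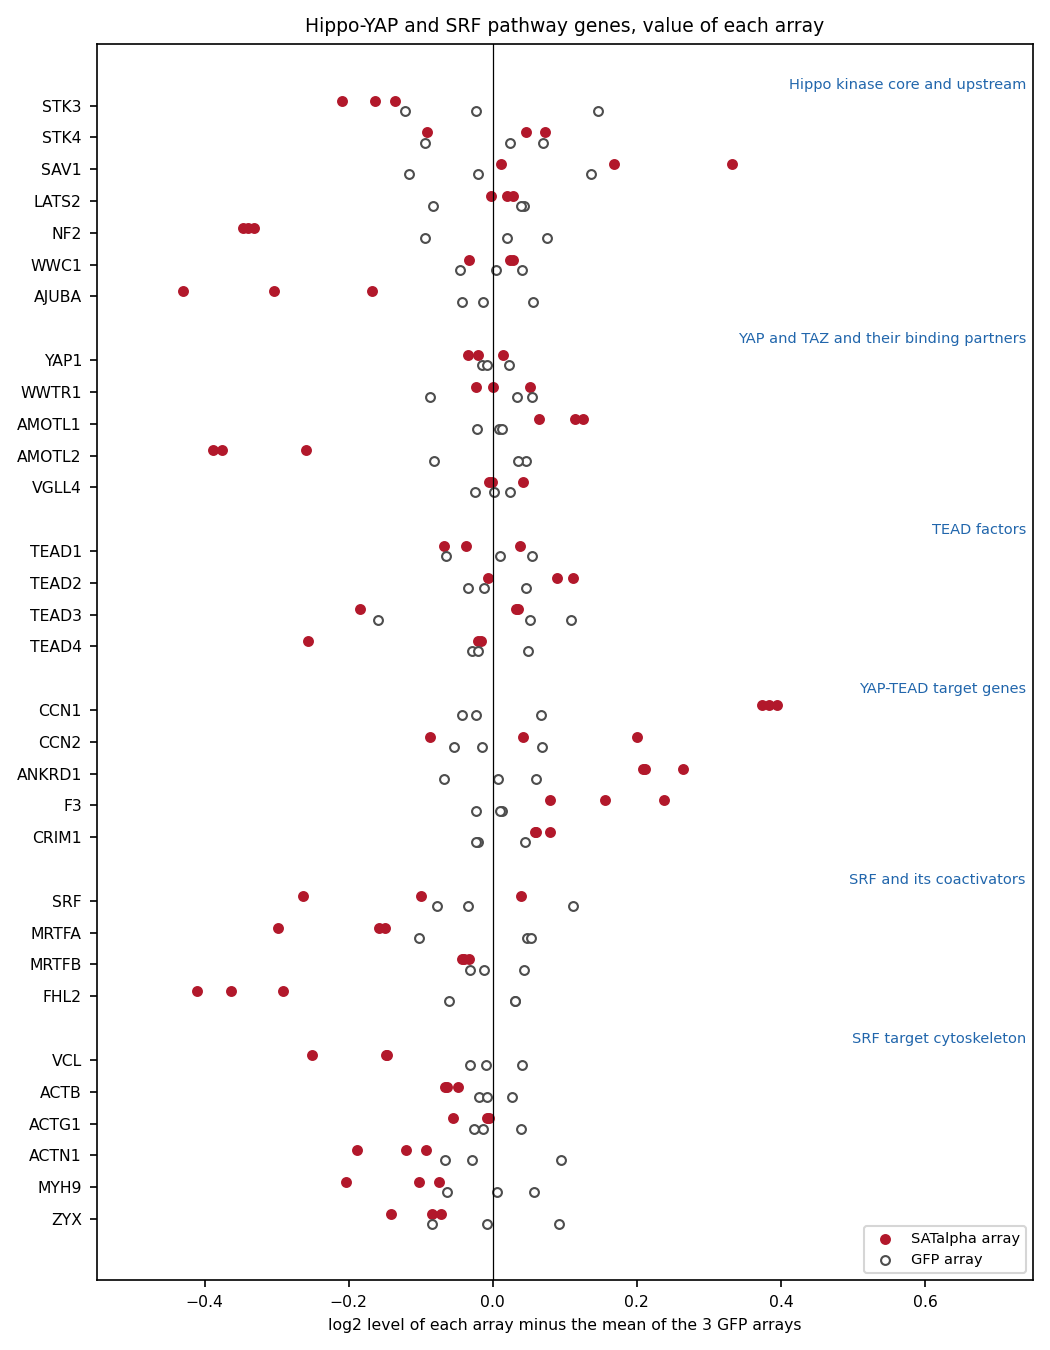
Log2 level of each array minus the mean of the 3 GFP arrays for the 31 tested genes, grouped by role, with filled points for SATalpha arrays and open points for GFP arrays. The 3 SATalpha points lie to the right of every GFP point for CCN1, ANKRD1 and F3, and to the left for NF2, AJUBA, AMOTL2, FHL2, VCL and ACTN1.

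The SATalpha values lay wholly above the GFP values in 5 of the 31 genes and wholly below in 11. Together these are 16 genes, where 37.6% of all tested genes had groups that did not overlap. The plot of array values shows that the SATalpha values of NF2, CCN1 and MRTFB were tightly bunched, whereas those of SAV1, AJUBA and CCN2 were spread. Standard errors (SE) of the log2 differences ran from 0.03 for ACTB to 0.10 for TEAD3.

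Among regulators upstream of YAP1, NF2 and AJUBA fell. NF2 encodes merlin, which brings LATS kinases to the membrane and so favours YAP1 phosphorylation. Its brightest probe set read 8.48, 8.49 and 8.49 in the SATalpha arrays, against 8.73, 8.90 and 8.85 in the GFP arrays. Every SATalpha array was below every GFP array, and the difference was -0.34 (SE 0.05, limma adjusted p = 0.000478), or 0.791-fold. NF2 has 7 probe sets, and the other 6 differed by -0.19 to 0.09 without passing. Averaged over all 7, NF2 differed by -0.10 and did not pass (limma adjusted p = 0.187, and between 0.000391 and 0.187 across the alternatives).

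AJUBA is a LIM-domain protein that binds and restrains LATS kinases, so its known action opposes that of merlin. Its brightest probe set read 9.69, 9.83 and 9.57 in SATalpha cells, against 9.98, 9.96 and 10.05 in GFP cells. The groups did not overlap, and the difference was -0.30 (SE 0.06, limma adjusted p = 0.00235). All 3 AJUBA probe sets fell in the test over probe sets, by 0.24, 0.30 and 0.35, and the smallest of these falls passed only without SATalpha replicate 2 among the arrays left out (-0.29 to -0.20). That second limma test adjusts over all 49293 probe sets other than controls, of which 8.36% passed.

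The kinase genes themselves gave no call in their brightest probe sets. STK3 differed by -0.17 (95% interval -0.32 to -0.02, limma adjusted p = 0.104), with all SATalpha arrays below the GFP arrays. Its 5 probe sets ran from -0.17 to 0.24 without a call, and their mean was 0.01 (limma adjusted p = 0.921). STK4 differed by 0.01 (-0.12 to 0.13, adjusted p = 0.937), LATS2 by 0.02 (-0.09 to 0.12, adjusted p = 0.862) and SAV1 by 0.17 (-0.01 to 0.35, adjusted p = 0.177). The other SAV1 probe sets differed by 0.19 and, with no overlap, by 0.24, without passing. The mean of all 3 was 0.20 (adjusted p = 0.0568). WWC1, which encodes the LATS activator KIBRA, differed by 0.01 (-0.09 to 0.10). Its second probe set differed by 0.36 with no overlap, and the mean of both was 0.18 (adjusted p = 0.0687). STK4 is a gene where probe sets parted. The brightest of 6 read 8.70, 8.73 and 8.56 in SATalpha cells, against 8.68, 8.73 and 8.56 in GFP cells. A dimmer one read 8.18, 8.10 and 8.18 in SATalpha cells, against 7.79, 7.76 and 7.95 in GFP cells, and rose by 0.32 without overlap (limma adjusted p = 0.00432 over probe sets). Another rose by 0.26 (adjusted p = 0.0405), and of the arrays left out in turn it passed only without SATalpha replicate 3 (0.22 to 0.32). As the mean of its probe sets, STK4 rose by 0.19 (adjusted p = 0.0199, and between 0.0199 and 0.952 across the alternatives). LATS1 lay under the floor. Its dimmest probe set read 3.63, 3.91 and 3.23 in SATalpha cells, against 2.98, 2.63 and 3.08 in GFP cells. That probe set rose by 0.70 (adjusted p = 0.0150 over probe sets), and the other 2 differed by -0.10 and 0.02. It no longer passed without GFP replicate 2 or without SATalpha replicate 1 or 2, with differences of 0.53 to 0.87 over the 6 arrays left out in turn.

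YAP1 and WWTR1 lay close to no difference. The brightest YAP1 probe set read 9.06, 9.11 and 9.07 in SATalpha cells, against 9.08, 9.09 and 9.12 in GFP cells, a difference of -0.01 (95% interval -0.10 to 0.08, limma adjusted p = 0.862). The brightest WWTR1 probe set read 7.87, 7.82 and 7.79 in SATalpha cells, against 7.85, 7.73 and 7.87 in GFP cells, a difference of 0.01 (-0.11 to 0.13, adjusted p = 0.932). For both genes the groups overlapped. Of the 8 YAP1 probe sets, 7 differed by more than 0, and 1 of these rose, at 8.55, 8.56 and 8.54 in SATalpha cells against 8.32, 8.35 and 8.34 in GFP cells. Its difference was 0.21 (limma adjusted p = 0.0138 over probe sets), and it no longer passed when GFP replicate 1 or SATalpha replicate 1 was left out (0.20 to 0.22). The ID of that probe set marks it as one that can match several transcripts. The mean of all YAP1 probe sets differed by 0.12 (adjusted p = 0.0573), the opposite sign to the brightest.

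AMOTL2, one of the angiomotins, which tether YAP1 in the cytoplasm and at junctions, fell. Its brightest probe set read 7.28, 7.15 and 7.17 in SATalpha cells, against 7.59, 7.46 and 7.58 in GFP cells. The groups did not overlap, and the difference was -0.34 (SE 0.06, limma adjusted p = 0.00188). The dimmest AMOTL2 probe set fell by 0.54 (adjusted p = 0.0484 over probe sets), but of the arrays left out in turn it passed only without SATalpha replicate 3 (-0.70 to -0.33). The remaining probe set differed by 0.18 and did not pass. As the mean of all 3, AMOTL2 differed by -0.23 and did not pass (adjusted p = 0.0748, and between 0.00177 and 0.0748 across the alternatives). The sister gene AMOTL1 differed by 0.10 (SE 0.05, adjusted p = 0.175), with SATalpha values of 8.06, 8.00 and 8.05 all above GFP values of 7.95, 7.95 and 7.92. Its 4 probe sets ran from -0.08 to 0.10 without a call, and their mean was 0.02 (limma adjusted p = 0.869). AMOT, the founding angiomotin, was under the floor, and its 4 probe sets differed by -0.28 to 0.01 without a call. PTPN14, a phosphatase that binds YAP1, was also under the floor. Its single probe set read 4.66, 4.69 and 4.79 in SATalpha cells, against 4.84, 5.23 and 5.06 in GFP cells, a difference of -0.33 (adjusted p = 0.0955 over probe sets). VGLL4, which competes with YAP1 for TEAD factors, differed by 0.01 (95% interval -0.13 to 0.15). Another VGLL4 probe set differed by 0.28 with no overlap, without passing (limma adjusted p = 0.0659 over probe sets). The last differed by -0.06, and the mean of all 3 was 0.08 (adjusted p = 0.367).

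None of the 4 TEAD genes passed by limma. Their count at an unadjusted p under 0.05 was 0, and the unmoderated linear model also called 0. TEAD1 read 8.30, 8.27 and 8.37 in SATalpha cells, against 8.35, 8.39 and 8.27 in GFP cells, a difference of -0.02 (95% interval -0.14 to 0.09). Its other 2 probe sets differed by 0.26 and 0.25, and that at 0.26 had all SATalpha arrays above the GFP arrays without passing (limma adjusted p = 0.116 over probe sets). TEAD2 differed by 0.06 (-0.06 to 0.18), TEAD3 by -0.04 (-0.25 to 0.17) and TEAD4 by -0.10 (-0.24 to 0.05). In the brightest probe sets the groups overlapped for all 4 genes, and TEAD3 had the widest interval.

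**Figure D2:**
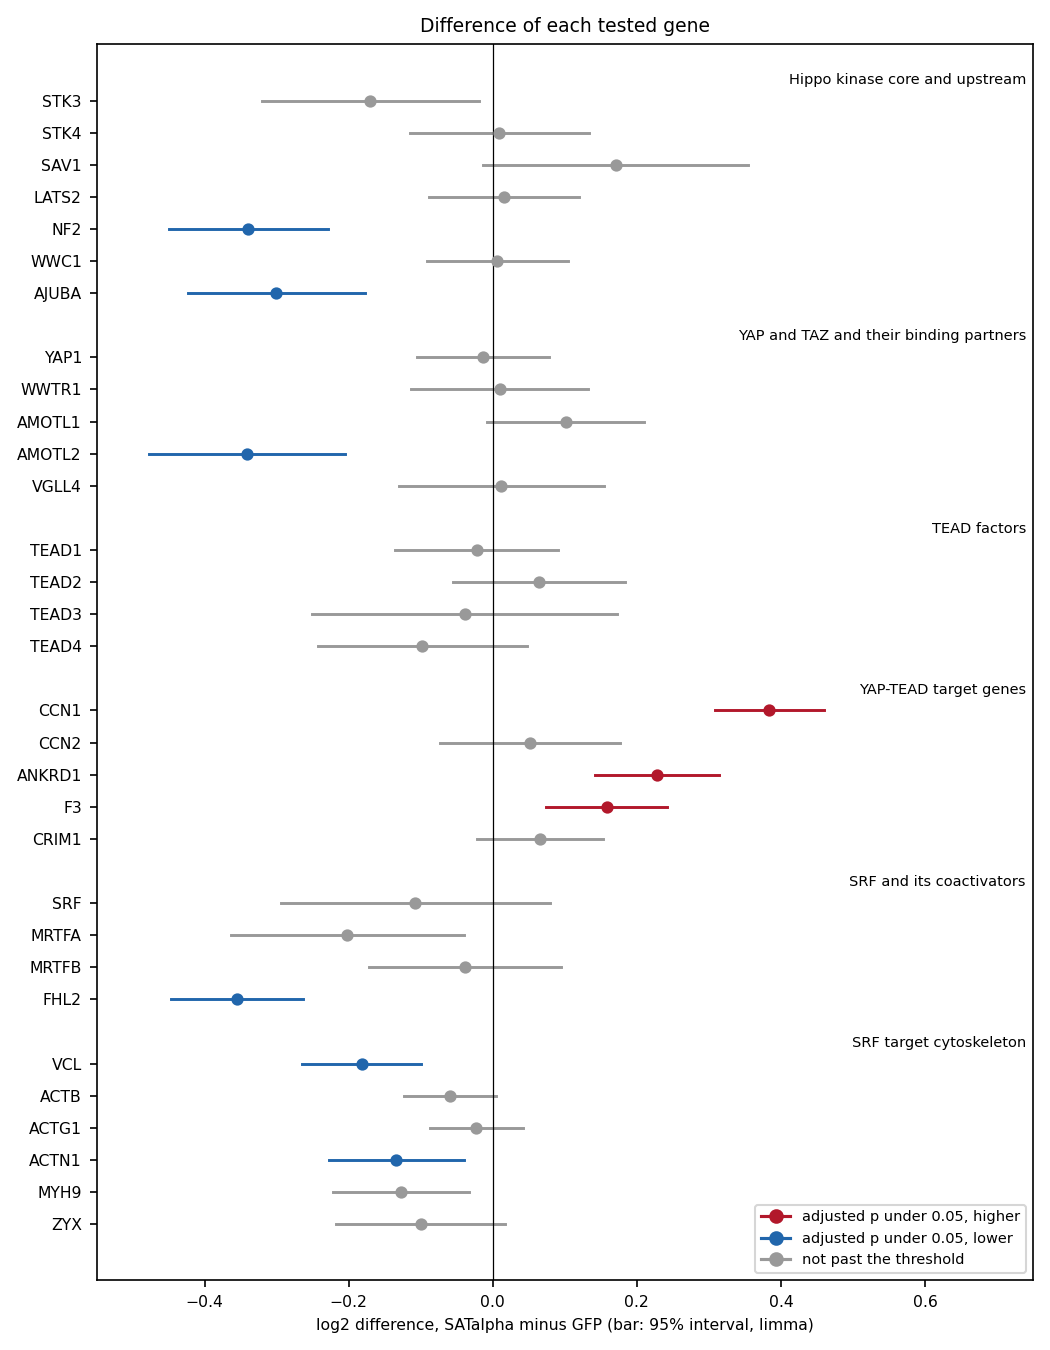
Log2 difference, SATalpha minus GFP, of each tested gene with its 95% interval from limma, grouped by role. The intervals of CCN1, ANKRD1 and F3 lie above 0, those of the 6 genes that fell lie below 0, and those of YAP1, WWTR1 and the 4 TEAD genes include 0.

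Of the 5 tested genes listed here as YAP-TEAD targets, 3 rose and 0 fell (60%, against 20.8% of all tested genes). Their median log2 difference was 0.16, and the other 2 genes missed the threshold. Each gene was listed under a single role, so this count leaves out any target listed elsewhere among the members. AMOTL2, which fell, was listed with the binding partners of YAP1 and TAZ. CCN1, a secreted matrix protein formerly named CYR61, read 12.20, 12.19 and 12.18 in SATalpha cells, against 11.78, 11.76 and 11.87 in GFP cells. The SATalpha arrays had an SD of 0.01 and lay well above the GFP arrays, a difference of 0.38 (SE 0.04, limma adjusted p = 6.06e-06), or 1.30-fold. Its second probe set rose by 0.39 (adjusted p = 1.85e-05 over probe sets), and CCN1 passed under each of the 15 alternatives tried. ANKRD1, a nuclear ankyrin repeat protein, read 11.00, 10.99 and 11.05 in SATalpha cells, against 10.79, 10.72 and 10.85 in GFP cells. It has 1 probe set, its groups did not overlap, and it rose by 0.23 (SE 0.04, limma adjusted p = 0.00131), or 1.17-fold.

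F3, the tissue factor that starts blood coagulation, rose in all 3 of its probe sets. The brightest read 12.15, 12.24 and 12.08 in SATalpha cells, against 11.98, 12.01 and 12.01 in GFP cells, a difference of 0.16 (SE 0.04, limma adjusted p = 0.0115). The others rose by 0.19 and 0.38 (adjusted p = 0.00343 and 0.000179 over probe sets). As a gene, F3 no longer passed when GFP replicate 1 was left out (0.15) or without a mean-variance trend (0.16). In the test over probe sets, its brightest probe set (adjusted p = 0.0219) passed only without SATalpha replicate 3 among the arrays left out (0.12 to 0.20). CCN2, the sister of CCN1, read 11.26, 11.42 and 11.13 in SATalpha cells, against 11.20, 11.16 and 11.29 in GFP cells. Its groups overlapped, and the difference was 0.05 (95% interval -0.07 to 0.18, adjusted p = 0.574), with all 3 probe sets between 0.05 and 0.06. The interval of CCN2 lies wholly below that of CCN1 (0.31 to 0.46), but the difference between the genes was not tested. CRIM1, a transmembrane protein that binds BMPs, differed by 0.07 (adjusted p = 0.277) in its brightest probe set, with all SATalpha arrays above the GFP arrays. A second probe set read 6.97, 6.63 and 6.86 in SATalpha cells, against 6.32, 6.53 and 6.33 in GFP cells, and rose by 0.43 without overlap (adjusted p = 0.0106 over probe sets). It no longer passed when GFP replicate 1 or SATalpha replicate 1 was left out (0.35 to 0.52). As the mean of 3 probe sets it rose by 0.27 (adjusted p = 0.0106, and between 0.0106 and 0.513 across the alternatives). NUAK2, a kinase under the floor, differed by -0.14 (adjusted p = 0.593 over probe sets).

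The promoters of these genes can be set beside their values. RefSeq sequences (GRCh38.p14) of the 250 bases before a start site were searched for GGAATG, the core motif of TEAD binding, on both strands. It was found in 13 of 64 windows of member genes (20.3%) and in 11.9% of all 35116 windows. Windows of 31 of the 37 member genes were searched, FHL1, FLNA, NUAK2 and PTPN14 among them, and several starts of 1 gene can overlap. CCN1, CRIM1, TEAD1, TEAD4, STK3 and ACTB were not searched for either motif. Member genes with a match numbered 13, namely ACTN1, AJUBA, AMOTL2, ANKRD1, CCN2, FHL1, FHL2, MRTFB, MYH9, NUAK2, PTPN14, VCL and YAP1. Of these, ANKRD1 rose, while ACTN1, AJUBA, AMOTL2, FHL2 and VCL fell. The rest did not pass or were not tested as genes. CCN2, with 3 matches, did not pass the test, ANKRD1, with 2, rose, and AMOTL2, with 1, fell. These 3 are shown as examples of each outcome, not in proportion to it. Capitals mark the motif, which in AMOTL2 reads on the opposite strand.
CCN2, chr6:131951373-131951622, minus strand: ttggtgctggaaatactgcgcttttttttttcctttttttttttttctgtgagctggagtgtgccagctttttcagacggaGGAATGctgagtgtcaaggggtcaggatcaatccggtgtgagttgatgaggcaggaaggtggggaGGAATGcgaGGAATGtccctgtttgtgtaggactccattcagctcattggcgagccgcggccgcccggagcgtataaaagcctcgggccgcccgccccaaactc
ANKRD1, chr10:90921088-90921337, minus strand: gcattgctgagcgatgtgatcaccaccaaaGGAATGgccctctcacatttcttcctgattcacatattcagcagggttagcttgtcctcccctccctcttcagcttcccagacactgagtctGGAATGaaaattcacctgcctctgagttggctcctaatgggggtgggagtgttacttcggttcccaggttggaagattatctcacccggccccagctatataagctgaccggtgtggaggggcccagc
AMOTL2, chr3:134374448-134374697, minus strand: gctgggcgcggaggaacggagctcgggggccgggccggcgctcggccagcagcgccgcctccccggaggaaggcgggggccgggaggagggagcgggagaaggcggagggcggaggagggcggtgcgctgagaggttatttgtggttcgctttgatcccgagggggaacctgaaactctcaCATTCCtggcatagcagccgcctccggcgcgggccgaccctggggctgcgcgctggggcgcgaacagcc
Counted from the start site, the motif begins at -169, -104 and -95 in CCN2, at -220 and -128 in ANKRD1 and at -69 in AMOTL2. F3, which rose, has no GGAATG in its window.

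Of SRF and its cofactors, all 4 tested genes differed by less than 0 in their brightest probe sets, with a median of -0.15. Of all 10879 tested genes, 6274 differed by less than 0. Of the 4 genes, 1 passed (25%, against 20.8% of all tested genes). FHL2, a LIM-domain cofactor that binds SRF and is itself induced by it, gave the largest decrease among the members. It read 10.21, 10.33 and 10.25 in SATalpha cells, against 10.56, 10.65 and 10.65 in GFP cells. The groups were far apart, and the difference was -0.36 (SE 0.04, limma adjusted p = 7.15e-05), or 0.782-fold. Its other 2 probe sets fell by 0.40 and 0.43, and FHL2 passed under each of the 15 alternatives tried. MRTFA read 6.48, 6.34 and 6.48 in SATalpha cells, against 6.68, 6.53 and 6.69 in GFP cells. Its groups did not overlap, yet the difference of -0.20 (SE 0.08, adjusted p = 0.0736) did not pass. Another MRTFA probe set differed by 0.21, and the mean of all 4 was -0.03 (adjusted p = 0.819). SRF differed by -0.11 (95% interval -0.29 to 0.08, adjusted p = 0.418) with overlapping groups, and MRTFB by -0.04 (-0.17 to 0.09, adjusted p = 0.713).

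The CArG box, the site that SRF binds, was searched in the same windows as CC, then 6 bases of A or T, then GG. It was found in 8 of 64 windows of member genes (12.5%) and in 1.16% of all windows. Of the genes searched, the 6 with a match were ACTG1, ACTN1, FHL1, FHL2, FLNA and SRF. Of these, FHL2 fell, ACTN1 fell with an uncertain direction, and ACTG1 and SRF did not pass. FHL1 and FLNA were not analysed here. The FHL2 windows chr2:105438514-105438763 and chr2:105438530-105438779 overlap and share a box. FHL2 and SRF are shown, since FHL2 fell and SRF carries paired boxes in its own promoter. Capitals mark the boxes.
FHL2, chr2:105438514-105438763, minus strand: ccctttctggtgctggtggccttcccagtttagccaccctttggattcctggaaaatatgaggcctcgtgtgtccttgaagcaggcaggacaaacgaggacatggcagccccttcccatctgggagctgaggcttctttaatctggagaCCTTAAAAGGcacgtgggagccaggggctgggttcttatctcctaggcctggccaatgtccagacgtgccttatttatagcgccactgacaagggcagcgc
SRF, chr6:43171019-43171268, plus strand: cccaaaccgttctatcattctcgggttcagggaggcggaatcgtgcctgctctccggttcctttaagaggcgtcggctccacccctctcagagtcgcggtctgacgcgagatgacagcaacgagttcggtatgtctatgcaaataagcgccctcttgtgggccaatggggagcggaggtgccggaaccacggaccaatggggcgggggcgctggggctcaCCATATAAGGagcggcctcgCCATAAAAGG
The FHL2 box begins at -101 from the start site shown, 1 of 4 listed for that gene, and the SRF boxes begin at -30 and -10.

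Of the 6 tested cytoskeletal SRF targets, 2 fell and 0 rose (33.3%, against 20.8% of all tested genes, with 13.0% lower). All 6 differed by less than 0 in their brightest probe sets, as did 6274 of all 10879 tested genes, and the median was -0.11. Vinculin, encoded by VCL, links integrin adhesions to actin. It read 11.36, 11.37 and 11.26 in SATalpha cells, against 11.48, 11.50 and 11.55 in GFP cells, a difference of -0.18 (SE 0.04, limma adjusted p = 0.00447). Its groups did not overlap. None of its 3 dimmer probe sets passed, at -0.09 to -0.06, nor did the mean of all 4, at -0.10 (adjusted p = 0.184, and between 0.00164 and 0.184 across the alternatives). The actin crosslinker ACTN1 read 11.43, 11.45 and 11.36 in SATalpha cells, against 11.48, 11.52 and 11.64 in GFP cells. Its difference of -0.13 (SE 0.04, adjusted p = 0.0436) was close to the threshold, and none of its 7 probe sets passed in the test over probe sets. ACTN1 also missed the threshold without a filter, with median centring, without a mean-variance trend and by the unmoderated model (-0.13 in each). It no longer passed when GFP replicate 2 or 3 or SATalpha replicate 1 or 3 was left out (-0.17 to -0.09 over the 6 arrays). Without probe sets that can match several transcripts, ACTN1 rose by 0.21 (adjusted p = 0.0298, and between 0.0185 and 0.853 across the alternatives), so its direction is uncertain.

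MYH9, the heavy chain of nonmuscle myosin IIA, read 10.61, 10.71 and 10.74 in SATalpha cells, against 10.82, 10.75 and 10.87 in GFP cells. Its groups only just separated, and the difference of -0.13 (SE 0.04, limma adjusted p = 0.0551) missed the threshold. It passed with quantile normalization (-0.15), without GFP replicate 2 (-0.16) and without SATalpha replicate 3 (-0.15), with adjusted p between 0.0190 and 0.428 across the alternatives. The mean of its 4 probe sets was 0.06, so its direction is uncertain too. Zyxin, a focal adhesion protein encoded by ZYX, differed by -0.10 (adjusted p = 0.218). The actin genes moved little. ACTB differed by -0.06 (95% interval -0.12 to 0.0039) and ACTG1 by -0.02 (-0.09 to 0.04), and the ACTB control probe set for the 3′ end averaged 13.17 ± 0.05 in SATalpha cells and 13.13 ± 0.03 in GFP cells (SD, n = 3 each). All 8 tested probe sets of these near-identical genes are of a kind that can also match other transcripts, so the share of each gene is uncertain.

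**Figure D3:**
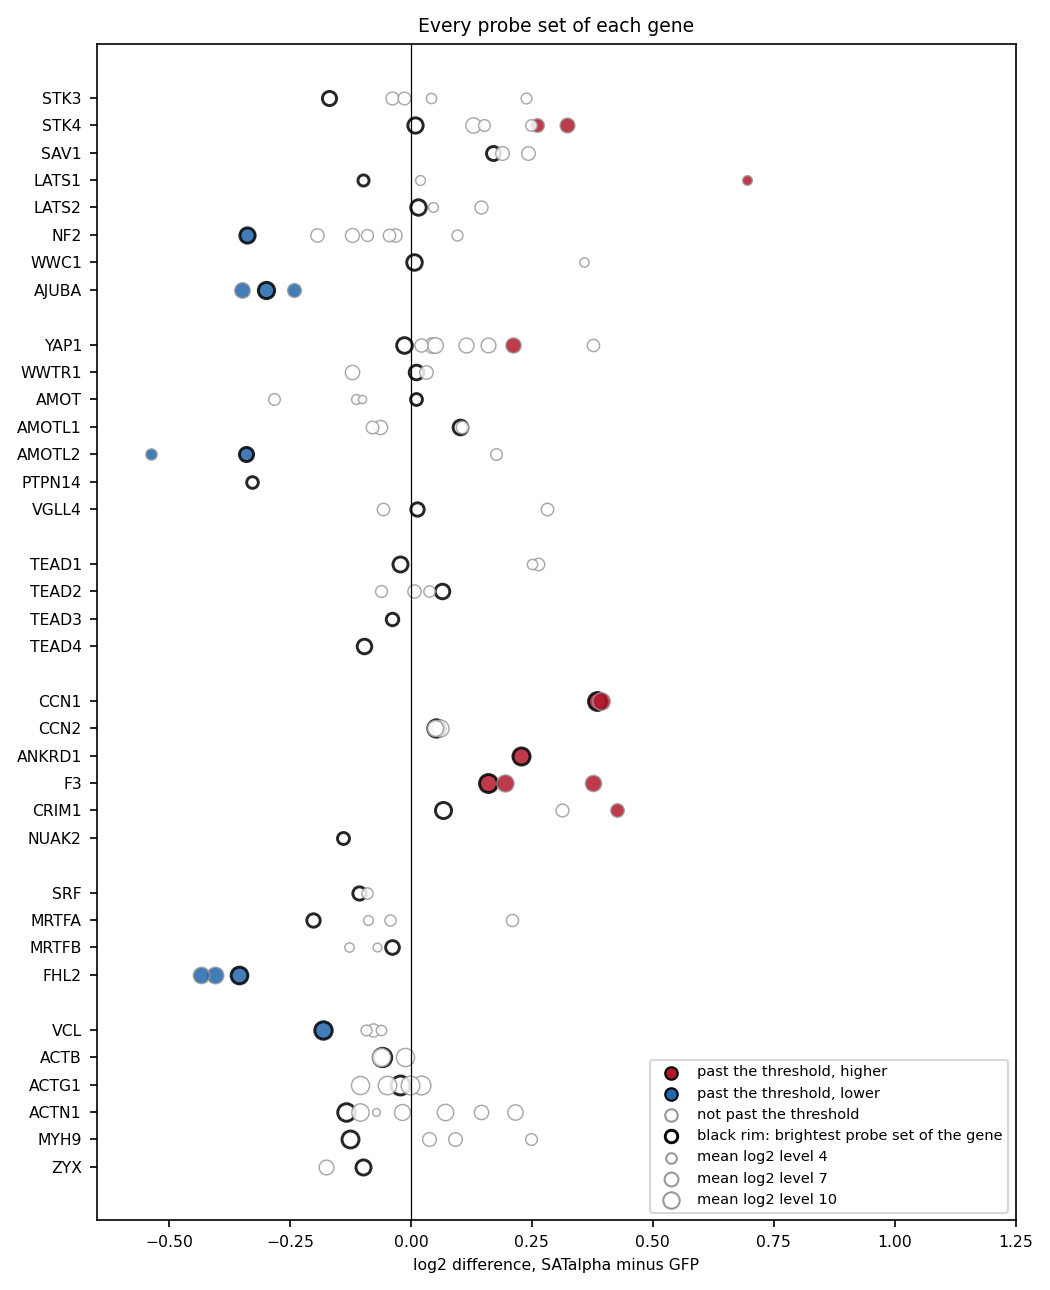
Log2 difference, SATalpha minus GFP, of all 117 tested probe sets, by gene. A black rim marks the brightest probe set of a gene, larger circles have a higher mean level, and filled circles passed the limma test over all probe sets. CCN1, F3, AJUBA and FHL2 have every probe set filled and on 1 side of 0, while ACTN1, MYH9 and YAP1 have probe sets on both sides.

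Of the 117 probe sets, 11 rose and 10 fell (17.9% in all, against 8.36% of all probe sets, with 4.18% higher and 4.19% lower). Of these 21, 13 were not the one that represented their gene. CCN1, F3, AJUBA and FHL2 were the 4 members with 2 or more probe sets that all passed in 1 direction. As the mean of all probe sets, 5 member genes rose and 3 fell. The higher ones were CCN1, ANKRD1, F3, CRIM1 and STK4, and the lower ones FHL2, AJUBA and PTPN14.

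The other genes of the pathways were mixed. Of 108 listed, 93 were tested, of which 10 rose and 15 fell (26.9% against 20.8% of all tested genes), with a median of -0.0015. Among 18 other upstream regulators of Hippo signalling, 3 rose and 1 fell. The LATS cofactor MOB1A rose by 0.24 (limma adjusted p = 0.00117), although its 4 other probe sets differed by -0.04 to 0.09. The kinase TAOK1, which activates STK3 and STK4, rose by 0.46 (adjusted p = 0.00671), and the membrane scaffold FRMD6 rose by 0.12 (adjusted p = 0.0396). FRMD6 no longer passed when GFP replicate 1 or 3 or SATalpha replicate 1 or 2 was left out (0.10 to 0.15). The atypical cadherin FAT1 fell by 0.20 (adjusted p = 0.00780). Of 8 other TEAD cofactors and 14-3-3 proteins, 0 passed by limma, although 1 had an unadjusted p under 0.05, and the unmoderated model called 0.

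Of 18 other YAP-TEAD targets tested, 1 rose and 3 fell (22.2%, against 20.8% of all tested genes), with a median of 0.01. Their difference from the member targets was not tested. FJX1 rose by 0.26 (limma adjusted p = 0.00415). DLC1 and ARHGAP29 fell by 0.23 (adjusted p = 0.000915) and 0.18 (adjusted p = 0.00415), and the cytokine receptor TNFRSF12A fell by 0.17 (adjusted p = 0.00188). The 5 other ARHGAP29 probe sets ran from -0.25 to 0.13.

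**Figure D4:**
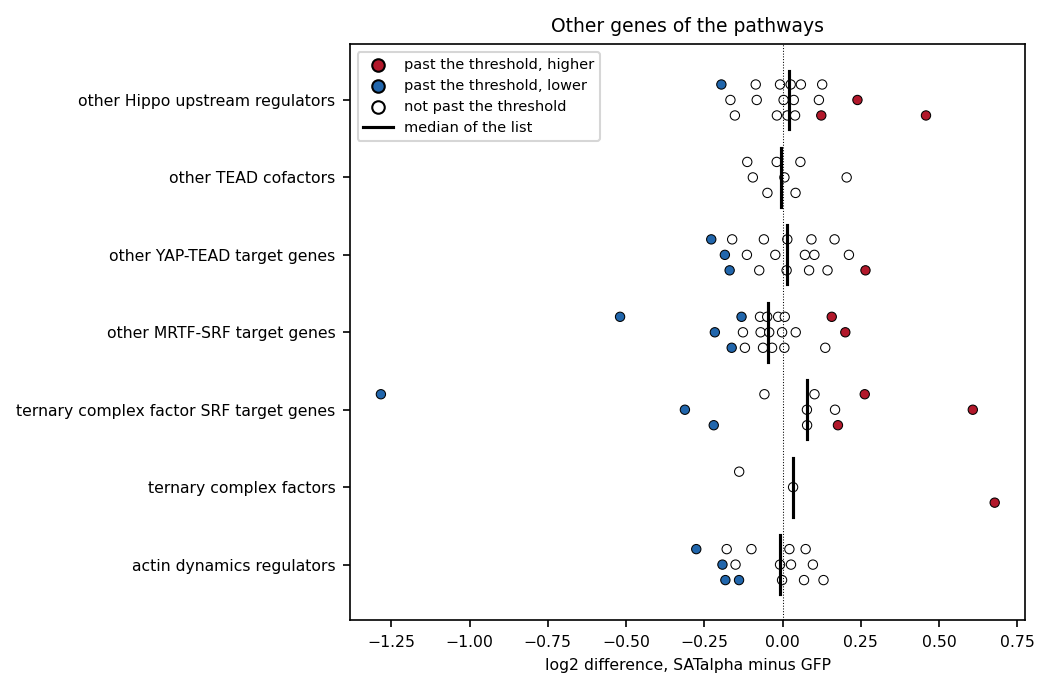
Log2 difference, SATalpha minus GFP, of 93 tested genes from 7 further lists of the pathways, with 1 point per gene and a bar at the median of each list. EGR1 lies farthest to the left at -1.28 and ELK4 farthest to the right at 0.68.

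Other MRTF-SRF targets numbered 20, of which 2 rose and 4 fell, with a median of -0.05. Smooth muscle actin, ACTA2, read 8.45, 8.42 and 8.46 in SATalpha cells, against 8.90, 8.92 and 9.06 in GFP cells. The groups were well apart, with a fall of 0.52 (SE 0.05, limma adjusted p = 1.40e-05), and 2 further probe sets gave -0.38 and -0.30. TUFT1 fell by 0.22 (adjusted p = 0.00265). In contrast, the actin-binding protein transgelin, TAGLN, rose by 0.16 (adjusted p = 0.00823), with its 5 other probe sets at 0.12 to 0.35, and tropomyosin TPM4 rose by 0.20 (adjusted p = 0.00725), with other probe sets at -0.09 to 0.17.

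Targets of ternary complex factors split evenly, with 3 higher and 3 lower of 11 tested. The transcription factor EGR1 read 6.36, 6.40 and 6.50 in SATalpha cells, against 7.69, 7.70 and 7.72 in GFP cells, and fell by 1.28 (SE 0.06, limma adjusted p = 1.61e-08), with 5 further probe sets at -1.23 to -0.13. IER3 read 12.00, 11.99 and 11.99 in SATalpha cells, against 11.40, 11.40 and 11.36 in GFP cells, and rose by 0.61 (adjusted p = 3.16e-08). Both separated without overlap, in opposite directions. The phosphatase DUSP5 fell by 0.31 and ATF3 by 0.22 (adjusted p = 0.000504 and 0.000981). Of the 3 ternary complex factors, ELK4 rose, at 6.22, 5.96 and 6.05 in SATalpha cells against 5.41, 5.35 and 5.43 in GFP cells, by 0.68 (SE 0.09, adjusted p = 0.000140), and its other 3 probe sets ran from 0.01 to 0.46. ELK1 and ELK3 did not pass.

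Regulators of actin dynamics had 4 lower, 0 higher and 11 not past the threshold of 15 tested. The formin DIAPH3 fell by 0.28 (limma adjusted p = 0.00139), the GTPase RHOC by 0.18 (adjusted p = 0.00188), the actin-binding protein profilin, PFN1, by 0.14 (adjusted p = 0.0192) and CDC42EP3 by 0.19 (adjusted p = 0.0222). PFN1 no longer passed when GFP replicate 1 or 2 or SATalpha replicate 1 was left out (-0.16 to -0.11), nor did CDC42EP3 when GFP replicate 1 or 2 or SATalpha replicate 1 or 2 was left out (-0.23 to -0.16). RHOA, ROCK1 and ROCK2 were among those that did not pass.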

How the data were processed

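Per the submitters' processing notes, MAS5 and RMA were used, without saying which made the deposited values. These are log2 values that the authors had normalized between arrays, with the log base read from their range. Their versions, background settings and filters were not given in the sources used here, and no scanner file or detection call was used, so signal could not be set against background. Probe sets were named from GEO's platform table: 44988 had 1 symbol, 1832 several and 2473 were not listed, and 79 were controls, left out of every test. Updating symbols through gene identifiers changed 0.

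Each log2 difference, SATalpha minus GFP, was fitted by limma 3.58.1 (lmFit, eBayes with a mean-variance trend, R 4.3.3) over 10879 genes, and over 49293 probe sets without a filter. Intervals are 95% moderated intervals, adjusted for no multiplicity. Precision is limited by the number of arrays, with a median SE of 0.06 over tested genes. The code was tested on simulated data. No batch is given in the labels, and its part in the results was not tested. Where RMA made the values, it compresses differences of dim probe sets. Named with values are members past the threshold, a fixed core (YAP1, WWTR1, TEAD1 to TEAD4, LATS1, LATS2, SRF, MRTFA, MRTFB, CCN1, CCN2, ANKRD1), members with a probe set past the threshold and up to 4 genes of each other list. Members and lists were chosen with earlier results of these data known. Alternatives were other filters, quantile normalization, median centring, the mean of a gene's probe sets, leaving out probe sets ending in _s_at or _x_at, no trend, an unmoderated model, a replicate block and each array left out.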

Additional observations from a re-analysis of the deposited data

How the results depend on the processing

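With 3 arrays per group, the calls of CCN1 and FHL2 held under all 15 alternatives. Member genes higher numbered 3, against 5 as the mean of all probe sets and 1 by the unmoderated model (2 to 3 with an array left out). Those lower numbered 6, against 3 and 2 (5 to 6 with an array left out, where MYH9 passed in 2 fits and ACTN1 was lost in 4). Member probe sets higher numbered 11, against 3 without a mean-variance trend and 2 unmoderated (6 to 13 with an array left out, 6 without SATalpha replicate 1 and 7 without GFP replicate 1), and lower 10, against 5 and 1. Genes of the other lists numbered 10 higher and 15 lower, against 6 and 6 unmoderated. Over all genes, 840 were higher and 1419 lower, against 246 and 471 unmoderated, 474 to 898 and 742 to 1622 with an array left out, and 483 and 817 with a replicate block. The labels do not say whether arrays with equal replicate numbers were paired. Arrays with the same number correlated in their deviations at -0.0035, -0.24 and -0.29, and those with different numbers at -0.13 to 0.34. With 3 arrays per group these values cannot settle whether arrays were paired. Under the replicate block 3 member genes were higher and 5 lower, with ACTN1 lost (-0.13). Under the mean of all probe sets the sign turned for STK3 (0.011), YAP1 (0.12), WWTR1 (-0.028), TEAD1 (0.16), ACTN1 (0.015) and MYH9 (0.063), and without _s_at and _x_at probe sets for TEAD1 (0.26) and ACTN1 (0.21). Leaving out 1 array turned the sign of uncalled genes near 0, with ranges of -0.038 to 0.059 for STK4, -0.026 to 0.037 for LATS2, -0.016 to 0.026 for WWC1, -0.035 to 0.037 for WWTR1, -0.0036 to 0.023 for VGLL4, -0.055 to 0.0051 for TEAD1, -0.12 to 0.034 for TEAD3 and -0.023 to 0.12 for CCN2. The unmoderated model also lost AJUBA (-0.30), AMOTL2 (-0.34), ANKRD1 (0.23), F3 (0.16), VCL (-0.18) and ACTN1 (-0.13). Counts over all genes moved by over 1.5 times without GFP replicate 1 and without SATalpha replicate 1 in both directions, and without GFP replicate 2 among lower genes (911). No value could be had without _s_at and _x_at probe sets for ACTB, ACTG1, VCL, SRF and MRTFB, for MRTFB as the mean of all probe sets, or with the lowest 60% left out for MRTFA, SRF, TEAD3 and VGLL4, since the gene was then not tested. The causes of the other changes were not tested.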

Other observations

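A probe set listed for both AKIP1 and NUAK2 was outside the rule and was chosen after its values were seen. It read 7.09, 7.34 and 7.14 in SATalpha cells, against 7.63, 7.60 and 7.80 in GFP cells, and fell by 0.49 (SE 0.08, limma adjusted p = 0.00118 over probe sets). All SATalpha arrays lay below the GFP arrays, and the probe set cannot say which of these genes it read. The single probe set of NUAK2 alone differed by -0.14 (adjusted p = 0.593 over probe sets). Markers of retinal pigment epithelium included 2 that fell, KRT18 by 0.21 (adjusted p = 0.000675) and KRT8 by 0.13 (adjusted p = 0.0266), and 0 that rose of 8 tested. KRT8 no longer passed when GFP replicate 1 or 3 or SATalpha replicate 1 or 2 was left out (-0.15 to -0.10). TUBB3, a neuronal tubulin listed among markers of other cell types, fell by 0.37 (adjusted p = 1.77e-05). The part of these values in the results on members was not tested.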
